A study of Mus musculus with 10 samples.

Results

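Mitochondrial fatty acid oxidation was followed through 10 genes in inguinal white adipose tissue (iWAT), the subcutaneous fat depot of the groin. The genes were chosen by name: Cpt1a, Slc25a20, Cpt2, Acadvl, Acadl, Acadm, Acads, Hadha, Hadhb and Acaa2. All 10 were found among the 40501 gene identifiers of the count table, and all 10 passed the filter on low counts, as did 14913 genes in all. RNA-seq libraries came from 5 Cre-positive mice with PexRAP (also called ADHAPR) deleted in adipose tissue, labelled PexRAP-AKO, and from 5 Cre-negative mice, labelled Control. All were male C57/BL6J mice on a chow diet. The labels name 8 weeks both as the time on chow and as the age, so it is unclear how old the mice were at harvest. Which promoter drives Cre and which exons are floxed is not given in the sources used here, nor is it stated that each library came from a separate animal. If libraries share an animal, the p-values measure a spread that may be technical.

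Long fatty acids enter mitochondria as carnitine esters. Carnitine palmitoyltransferase 1 (Cpt1a) makes the ester at the outer membrane, the carrier Slc25a20 moves it across the inner membrane, and Cpt2 turns it back into acyl-CoA. Inside, acyl-CoA dehydrogenases of decreasing chain length preference (Acadvl, Acadl, Acadm, Acads) start each round of oxidation. The trifunctional protein, built from the Hadha and Hadhb subunits, carries out the later steps on long chains, and the thiolase Acaa2 releases acetyl-CoA from shorter ones. In adipose tissue this pathway is known as the fuel supply of brown and beige fat cells. PexRAP, encoded by Dhrs7b, is a reductase of ether lipid synthesis, which begins in peroxisomes.

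Dhrs7b averaged 19.9 ± 2.26 CPM (counts scaled to the size of each library) in PexRAP-AKO and 82.4 ± 12.8 CPM in Control (SD, n = 5 each). It was lower in PexRAP-AKO, with a log2 fold change of -2.05 (SE 0.12; adjusted p = 1.54e-05 by edgeR's quasi-likelihood test with Benjamini-Hochberg adjustment). Library totals ran from 11274865 to 19881168 counts. White adipocyte markers, 11 of 11 of them tested, summed to 33395 to 42780 CPM in PexRAP-AKO and to 34309 to 45209 CPM in Control. Of the 11, 4 were positive and 7 negative (median log2 fold change -0.09), and 0 passed edgeR's adjusted p of 0.05. With edgeR's unadjusted p under 0.05, 1 was lower and 0 higher, against 6.44% and 9.01% of all genes. Groups did not overlap for 1, lower in PexRAP-AKO, against 1.33% of all genes. None of the 11 was at 0 in any library. In bulk tissue, fewer cells of a type and less RNA per cell cannot be told apart.

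The sequence before the start of 5 genes is shown in 4 stretches because Hadha and Hadhb share one start region, Slc25a20 and Cpt2 had the smallest p-values of the 10 genes, and Cpt1a had the smallest difference between groups. Sequences are from RefSeq (GRCm38.p6), written 5′ to 3′ in the strand given, and hold no exon annotated by GENCODE M21. The Cpt1a stretch lies before its RefSeq start but inside the gene's GENCODE span, which begins farther upstream. Capitals mark AGGTCA, a nuclear receptor half-site, or GGGCGG, a GC box, on either strand (reverse complements TGACCT and CCGCCC).
Hadha-Hadhb gap, chr5:30155163-30155247 (+): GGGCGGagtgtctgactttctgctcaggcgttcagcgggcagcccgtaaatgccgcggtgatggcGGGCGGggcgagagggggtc
Slc25a20, chr9:108661938-108662087 (+): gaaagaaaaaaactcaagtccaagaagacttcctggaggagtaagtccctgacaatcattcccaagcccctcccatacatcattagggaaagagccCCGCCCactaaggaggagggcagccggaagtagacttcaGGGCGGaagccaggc
Cpt2, chr4:107923611-107923760 (-): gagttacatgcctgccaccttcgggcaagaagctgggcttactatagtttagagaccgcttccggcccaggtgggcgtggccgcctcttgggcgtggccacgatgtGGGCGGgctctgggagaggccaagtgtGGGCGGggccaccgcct
Cpt1a, chr19:3323135-3323284 (+): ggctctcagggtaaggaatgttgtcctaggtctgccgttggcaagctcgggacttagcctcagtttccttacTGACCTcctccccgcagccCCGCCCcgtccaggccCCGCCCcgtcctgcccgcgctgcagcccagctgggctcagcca
The whole interval between the annotated starts of Hadha (minus strand, chr5:30118304-30155162) and Hadhb (plus strand, chr5:30155248-30184593) is the 85 bases shown, with 2 GC boxes. The 4 sequences hold 2 GC boxes each, and the Cpt1a one alone among the 4 also holds a half-site.

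RefSeq windows of 300 bases (250 before to 50 after a start) were available for 9 of the 10 genes, Acaa2 being the one without. GGGCGG stood in 7 of the 9 windows, with Acadm and Acadvl lacking it, and in 35.7% of 32851 windows in all. The windows of Hadha and Hadhb overlap, and a GC box of the gap between them lies in both, so they are not separate matches. AGGTCA stood in 3 of the 9, those of Acadm, Acadvl and Cpt1a, and in 16.3% of all windows. The direct repeat of that half-site spaced by 1 base, the type of element bound by PPAR with RXR, stood in 0 of the 9 and in 0.0396% of all. TNAAGGTCA, the extended half-site of the estrogen-related receptors, stood in 0 of the 9 and in 1.28% of all. TNAAGGTCA contains AGGTCA, as does the direct repeat, and both strands were searched each time. These are letter matches in short windows and not measured binding.

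All 10 genes were higher on average in PexRAP-AKO than in Control, by small amounts that did not pass the test across all genes. The log2 fold changes ran from 0.09 (Cpt1a) to 0.51 (Slc25a20), with a median of 0.35, which is a fold of 1.28. Over all 14913 genes the median was -0.00065 and 49.8% were positive. By edgeR with Benjamini-Hochberg adjustment, 0 of 10 passed an adjusted p of 0.05 (adjusted p = 0.160 to 0.776), and 0.101% of all genes did, 0.0939% as higher ones. At an unadjusted p under 0.05, 9 of 10 were higher, Cpt1a being the exception, against 9.01% of all genes. DESeq2 called 2 of 10, Slc25a20 (adjusted p = 0.0305) and Cpt2 (adjusted p = 0.0250), against 2.07% of all genes called higher. All values below are CPM, for PexRAP-AKO replicates 1, 2, 3, 5 and 6 and then for Control replicates 2, 3, 5, 7 and 8, in that order.

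**Figure D1:**
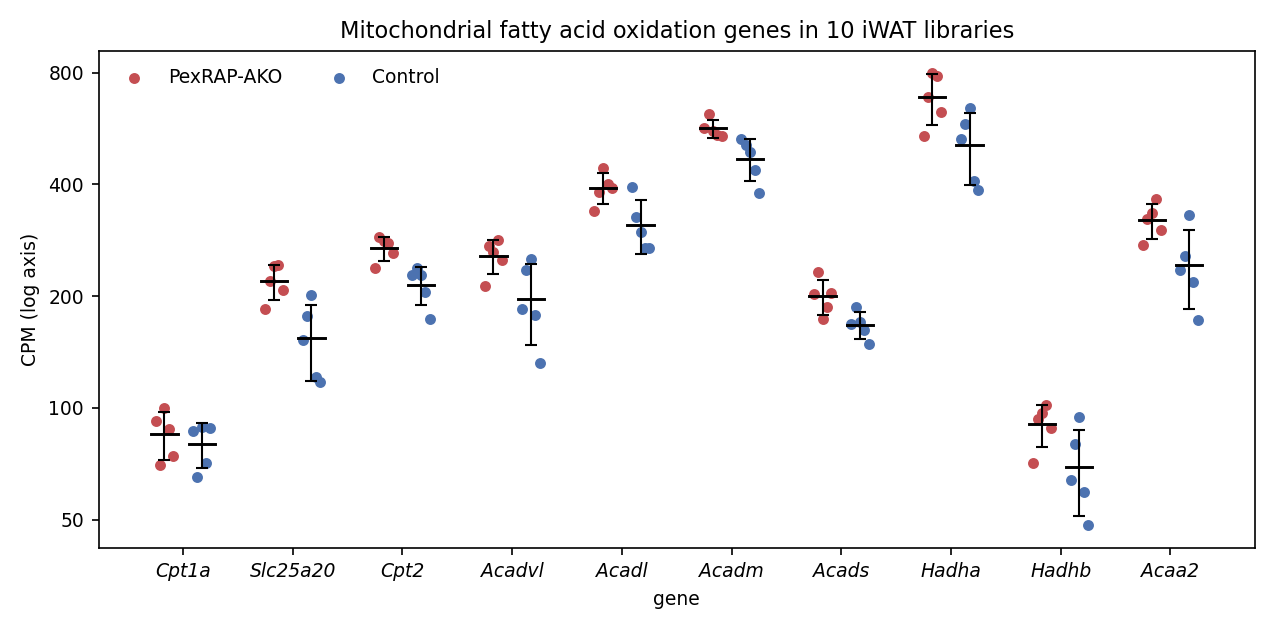
Level of each gene in CPM (log axis) in 5 PexRAP-AKO libraries (red, left of each pair) and 5 Control libraries (blue, right), with the mean as a line and the SD as bars. Cpt2 and Acadm are the genes whose groups do not overlap, and the lowest Control point is replicate 8 in 9 of 10 genes.

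Of the carnitine shuttle, Slc25a20, the inner membrane carrier, had the largest difference of the 10. It stood at 185, 220, 241, 242 and 207 CPM in PexRAP-AKO and at 152, 177, 201, 121 and 118 CPM in Control. Control replicates 7 and 8 lay far below the rest, and PexRAP-AKO replicate 1 lay between Control replicates 3 and 5, so the groups overlapped. The log2 fold change was 0.51 (SE 0.15, edgeR adjusted p = 0.175).

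Cpt2, the inner membrane transferase, stood at 238.5, 289, 281, 278 and 261 CPM in PexRAP-AKO and at 227, 238.0, 228, 206 and 174 CPM in Control. The groups did not overlap, but PexRAP-AKO replicate 1 and Control replicate 3 were almost level. That separation rests on the TMM scaling of the libraries. By library totals alone the groups overlapped, since PexRAP-AKO replicate 1 (2946 of 12671294 counts) fell below Control replicate 5 (4544 of 18787394 counts). The log2 fold change was 0.33 (SE 0.09, edgeR adjusted p = 0.160; exact two-sided permutation p = 0.00794, unadjusted and the smallest that 5 against 5 libraries allow).

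Cpt1a, the malonyl-CoA-sensitive entry step, stood at 92.3, 70.1, 99.9, 87.6 and 74.0 CPM in PexRAP-AKO and at 86.4, 65.0, 88.7, 71.2 and 88.2 CPM in Control. The groups overlapped nearly in full, with 2 PexRAP-AKO libraries in the low seventies and Control replicate 8 among the higher Control libraries. The log2 fold change was 0.09 (SE 0.12, edgeR adjusted p = 0.776). The ratio of each of the other 9 genes to Cpt1a was higher on average in PexRAP-AKO, yet 0 of 9 ratios passed an exact two-sided permutation test (p = 0.0556 for Slc25a20 to 0.444 for Acads, unadjusted). A different response of Cpt1a from the other 9 was therefore not shown.

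Among the acyl-CoA dehydrogenases, the medium-chain enzyme Acadm stood at 568, 618, 557, 545 and 540 CPM in PexRAP-AKO and at 529, 509, 488, 437 and 380 CPM in Control. Its groups did not overlap. The log2 fold change was 0.27 (SE 0.10, edgeR adjusted p = 0.218; exact two-sided permutation p = 0.00794, unadjusted). With TMM scaling, groups without overlap, higher in PexRAP-AKO, were thus found for 2 of 10 genes, against 2.08% of all genes. Groups without overlap and lower in PexRAP-AKO were found for 0 of 10, against 1.33% of all genes.

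The long-chain enzyme Acadl stood at 339, 381, 444, 402 and 391 CPM in PexRAP-AKO and at 394, 327, 297, 269 and 269 CPM in Control. Control replicate 2 lay above 3 of the PexRAP-AKO libraries, which makes the groups overlap (log2 fold change 0.33, SE 0.11, edgeR adjusted p = 0.213). The short-chain enzyme Acads, lower in level, stood at 203, 232, 173, 187 and 203 CPM in PexRAP-AKO and at 169, 187, 171, 162 and 148 CPM in Control. It varied least of the 10 over the libraries, and its groups overlapped through Control replicate 3 (log2 fold change 0.25, SE 0.09, edgeR adjusted p = 0.209).

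Acadvl, the very-long-chain enzyme of the inner membrane, stood at 212, 273, 262, 283 and 250 CPM in PexRAP-AKO and at 184, 235, 252, 177 and 132 CPM in Control. Control replicates 3 and 5 lay within the PexRAP-AKO range and the other 3 below it (log2 fold change 0.39, SE 0.16, edgeR adjusted p = 0.272). Its level is uncertain, since 42.9% of its exon bases lie opposite exons of Dvl2 and the strand used in counting is not given in the sources used here. Dvl2 averaged 17.6 ± 2.08 CPM in PexRAP-AKO and 18.6 ± 1.79 CPM in Control (SD, n = 5 each; log2 fold change -0.08, edgeR adjusted p = 0.735).

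Hadha, the alpha subunit of the trifunctional protein, stood at 539, 690, 796, 784 and 629 CPM in PexRAP-AKO and at 531, 582, 643, 409 and 386 CPM in Control. Hadhb, the beta subunit, stood at 71.2, 93.1, 96.9, 102 and 88.2 CPM in PexRAP-AKO and at 64.1, 79.9, 94.6, 59.2 and 48.3 CPM in Control. In both genes PexRAP-AKO replicates 3 and 5 were highest, Control replicates 7 and 8 lowest, and Control replicates 3 and 5 stood among the PexRAP-AKO libraries. The log2 fold changes were 0.43 for Hadha (SE 0.16, edgeR adjusted p = 0.228) and 0.38 for Hadhb (SE 0.17, edgeR adjusted p = 0.316).

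The Hadha to Hadhb ratio of CPM was 7.12 to 8.21 in PexRAP-AKO and 6.78 to 8.27 in Control, with an exact two-sided permutation p of 0.643. The level of Hadhb is uncertain: 62.4% of the 50-base stretches of its main transcript also occur in the pseudogenes Gm13910 and Gm9108. Gm13910 averaged 6.49 ± 2.05 CPM in PexRAP-AKO and 5.22 ± 1.98 CPM in Control (SD, n = 5 each; log2 fold change 0.29, edgeR adjusted p = 0.650). Whether shared reads lower the Hadhb counts was not tested.

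Acaa2, the thiolase of the last step, stood at 274, 322, 336, 366 and 302 CPM in PexRAP-AKO and at 235, 257, 331, 218 and 173 CPM in Control. Control replicate 5 was above 3 of the PexRAP-AKO libraries, while the other 4 Control libraries were below them all. The log2 fold change was 0.40 (SE 0.15, edgeR adjusted p = 0.240).

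Set per kilobase of the main transcript, levels in PexRAP-AKO ran from Acadm (276 ± 15.2 CPM per kb) through Acaa2 (211 ± 22.8), Acadl (204 ± 19.8) and Hadha (171 ± 26.9) to Slc25a20 (123 ± 13.5). Acadvl (118 ± 12.6), Cpt2 (114 ± 8.48), Acads (107 ± 11.7), Hadhb (44.1 ± 5.76) and Cpt1a (19.6 ± 2.89) followed (SD, n = 5). In Control they ran from Acadm (229 ± 29.4 CPM per kb), Acadl (162 ± 27.1), Acaa2 (160.1 ± 38.5) and Hadha (127 ± 27.6) to Cpt2 (90.5 ± 10.8). Acadvl (90.4 ± 22.2), Acads (89.5 ± 7.45), Slc25a20 (86.3 ± 20.1), Hadhb (33.8 ± 8.88) and Cpt1a (18.5 ± 2.55) followed (SD, n = 5). Within libraries, Acadm was above Acaa2 in 10 of 10, Hadha above Slc25a20, Acads above Hadhb and Hadhb above Cpt1a in 10 of 10 each, and Acadl above Hadha in 9 of 10. Neighbours with no fixed order were Acaa2 above Acadl in 5 of 10 libraries, and Slc25a20 above Acadvl, Acadvl above Cpt2 and Cpt2 above Acads in 6 of 10 each. Cpt1b, the muscle and brown fat form of the entry enzyme, was low, at 4.82 ± 1.87 CPM in PexRAP-AKO and 2.50 ± 2.11 CPM in Control (SD, n = 5 each; log2 fold change 0.89, edgeR adjusted p = 0.463).

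The spread within Control was shared by the genes. Together the 10 genes took 0.300% ± 0.0236 of all counts in PexRAP-AKO and 0.247% ± 0.0400 in Control (SD, n = 5 each). Their summed level was 2721 to 3288 CPM in PexRAP-AKO and 1916 to 2793 CPM in Control. In 9 of 10 genes, all but Cpt1a, Control replicates 7 and 8 were the 2 lowest of the 10 libraries. The highest library was a PexRAP-AKO one in 10 of 10, namely replicate 5 in 4 genes and replicates 2 and 3 in 3 genes each. PexRAP-AKO replicate 1 was the lowest of its group in 7 genes. Cpt2 followed the mean of the other 9 most closely over the libraries (root mean square difference 0.07 on the log2 scale), and Cpt1a least closely (0.31).

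The same libraries differed in brown adipocyte markers. Ucp1, the uncoupling protein of brown fat, stood at 94.1, 519, 1603, 1371 and 608 CPM in PexRAP-AKO and at 319, 381, 1159, 40.6 and 28.6 CPM in Control. Control replicates 7 and 8 were lowest here too, and PexRAP-AKO replicates 3 and 5 highest. The 11 brown markers summed to 674 to 2974 CPM in PexRAP-AKO and to 352 to 2336 CPM in Control, with Zic1 at 0 in some libraries and not tested. Of 10 tested, 8 were positive (median log2 fold change 0.84) and 0 passed edgeR's adjusted p. At an unadjusted p under 0.05, 2 were higher and 1 lower, against 9.01% and 6.44% of all genes. The mean log2 CPM of the 10 tested markers, here the brown adipocyte score, was 6.50 ± 0.755 in PexRAP-AKO and 5.53 ± 1.07 in Control (SD, n = 5 each). None of the 10 oxidation genes is in that score. The score carries the name of its marker list, and brown cells were not told apart from beige ones.

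Within groups, 5 of the 10 genes were higher in libraries with a higher brown adipocyte score. In an edgeR fit over all genes with group and score as terms, chosen after values were seen, the slope passed an adjusted p of 0.05 for these 5, against 1.18% of the 14903 genes outside the score with a positive slope called. Slopes, in log2 CPM per unit of score, were 0.31 for Hadhb (SE 0.04, adjusted p = 0.00151), 0.30 for Hadha (SE 0.04, adjusted p = 0.00188) and 0.28 for Slc25a20 (SE 0.03, adjusted p = 0.00162). Acadvl had 0.28 (SE 0.05, adjusted p = 0.0161) and Acaa2 0.27 (SE 0.04, adjusted p = 0.00879). The other 5 did not pass by edgeR: Cpt2 0.14 (adjusted p = 0.109), Acadl 0.13 (0.323), Acadm 0.09 (0.455), Acads 0.03 (0.850) and Cpt1a 0.01 (0.965). Whether the slopes of the genes differ from each other was not tested. The count of 5 was 3 without Control replicate 5, where Acadvl and Acaa2 were lost, and 4 without PexRAP-AKO replicate 1, where Acadvl was lost. Over all genes, the positive slopes called in those fits numbered 75 of 14924 and 58 of 15169, score markers included.

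**Figure D2:**
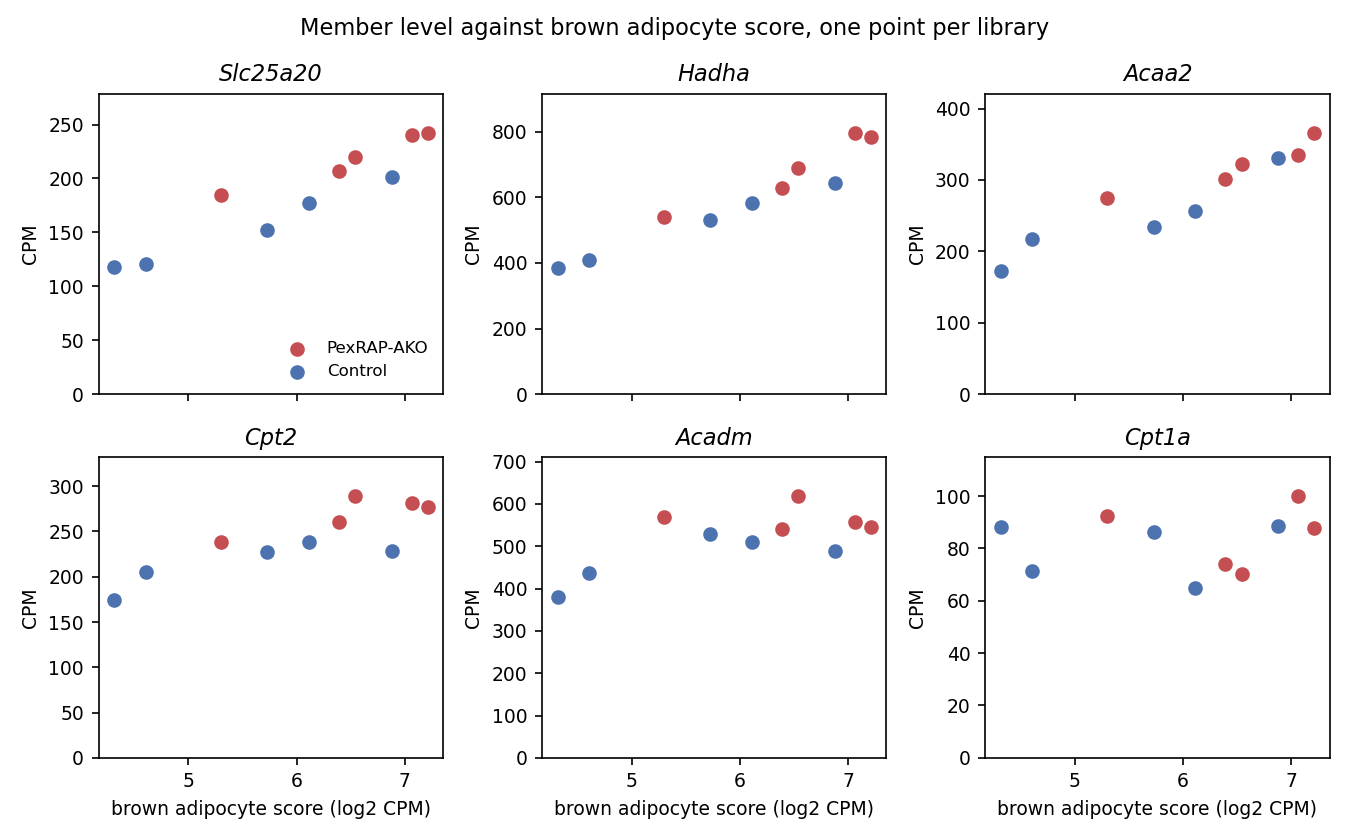
Level of 6 genes in CPM (vertical axes from 0) against the brown adipocyte score (mean log2 CPM of 10 brown markers), 1 point per library, PexRAP-AKO in red and Control in blue. The slopes of Slc25a20, Hadha and Acaa2 (top) passed the adjusted test, and those of Cpt2, Acadm and Cpt1a (bottom) did not.

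With the score in the model, the group difference was smaller. The median log2 fold change of the 10 genes was 0.18, with 10 of 10 positive, against -0.00213 over all genes. At an unadjusted p under 0.05, 4 of 10 were higher, against 5.23% of all genes, and 0 passed the adjusted p by edgeR. They were Slc25a20 (0.26, SE 0.06), Cpt2 (0.20, SE 0.07), Acads (0.23, SE 0.10) and Hadha (0.15, SE 0.07). The difference for Hadhb was 0.10 (SE 0.07), and that for Acadvl 0.14 (SE 0.09). The score itself was higher on average in PexRAP-AKO (6.50, against 5.53 in Control), so score and group cannot be fully told apart here. Why the group difference became smaller was not tested.

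**Figure D3:**
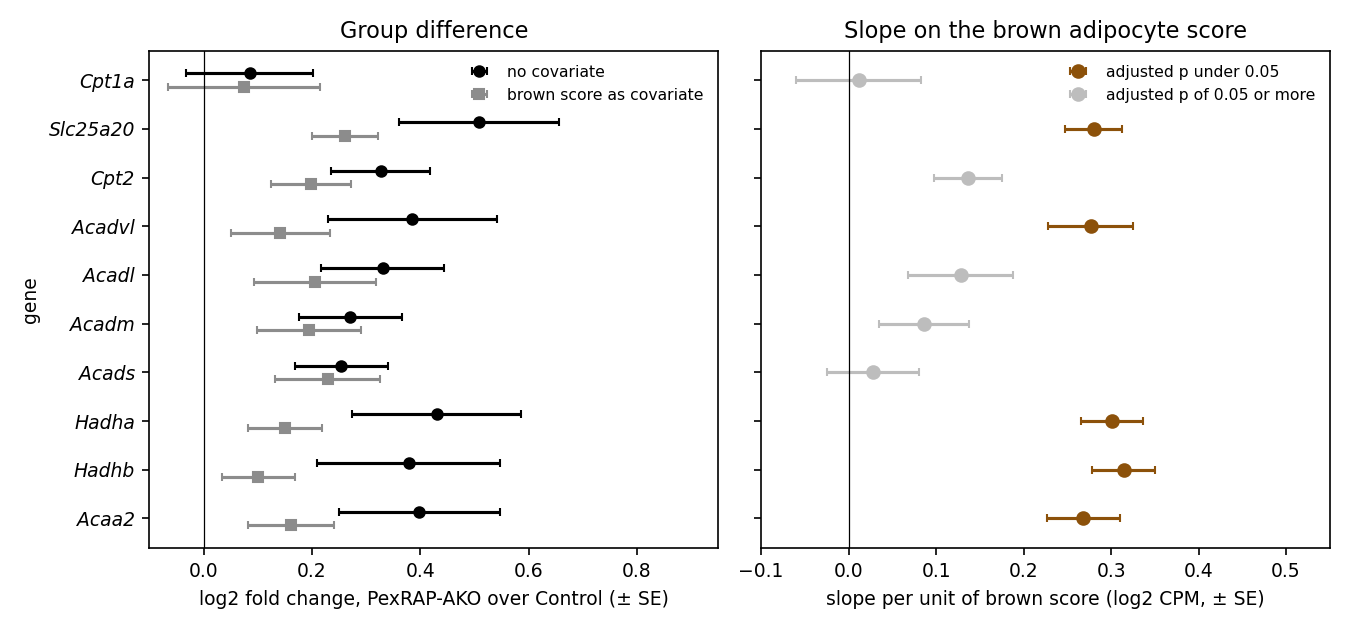
Left, log2 fold change of each gene, PexRAP-AKO over Control, without a covariate (black circles) and with the brown score as covariate (grey squares). Right, slope on that score in log2 CPM per unit. Bars are SE, and brown points mark the 5 slopes with an adjusted p under 0.05, those of Slc25a20, Acadvl, Hadha, Hadhb and Acaa2.

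Skeletal muscle markers also varied between libraries. Summed over 14 genes they stood at 25.7 to 312 CPM in PexRAP-AKO and at 37.0 to 2300 CPM in Control. Ckm and Tnnc2 were at 0 in some libraries. Control replicate 8, lowest in the summed oxidation genes, was the highest in muscle markers. Control replicate 7, next lowest in the oxidation genes, had 100.04 CPM, and Control replicate 5, the highest Control library in them, had 777 CPM. Of 13 muscle markers tested, 0 were positive (median log2 fold change -2.40) and 0 passed edgeR's adjusted p. At an unadjusted p under 0.05, 7 were lower, against 6.44% of all genes. With the muscle score in the model, 7 of the 10 oxidation genes were higher at an unadjusted p under 0.05, against 7.48% of all genes. The median of the 10 was 0.32. Cpt1a was now among the 7, with a log2 fold change of 0.21, above that of Acads (0.19). Acadvl, Hadhb and Acaa2, higher at that p without a covariate, were not. Leaving out both PexRAP-AKO replicate 6 and Control replicate 8, 5 of the 10 were higher at that p, against 7.13% of all genes, with a median of 0.28. Endothelial markers summed to 574 to 779.5 CPM in PexRAP-AKO and to 780.3 to 972 CPM in Control, so the sums stayed apart by a narrow margin. Of 7 tested, 0 were positive (median log2 fold change -0.22) and 0 passed edgeR's adjusted p. At an unadjusted p under 0.05, 4 were lower, against 6.44% of all genes. Groups did not overlap for 1 of the 7, lower in PexRAP-AKO, against 1.33% of all genes. The part of endothelial markers in the difference of the oxidation genes was not tested.

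Other genes of mitochondrial fatty acid oxidation leaned the same way. Of 21 listed and tested, 18 had a positive log2 fold change (median 0.21), 9 were higher and 0 lower at an unadjusted p under 0.05, against 9.01% and 6.44% of all genes. By edgeR 0 passed the adjusted p. Hadh, the dehydrogenase for shorter chains, stood at 599, 684, 611, 595 and 598 CPM in PexRAP-AKO and at 535, 556, 512, 476 and 433 CPM in Control (log2 fold change 0.30, SE 0.08). Decr1, the reductase that clears double bonds, stood at 344, 370, 345, 335 and 329 CPM in PexRAP-AKO and at 289, 318, 274, 259 and 242 CPM in Control (log2 fold change 0.32, SE 0.08). Those 2 were the genes of this list whose groups did not overlap, against 2.08% of all genes without overlap and higher. Etfdh, which passes the electrons on to the respiratory chain, averaged 266 ± 33.0 CPM in PexRAP-AKO and 184 ± 41.5 CPM in Control (SD, n = 5 each; log2 fold change 0.53). The slope on the brown adipocyte score was called for 2 of the 21, Etfdh (0.29, edgeR adjusted p = 0.00176) and Cpt1b (1.11, edgeR adjusted p = 0.000668). Crat, carnitine acetyltransferase, averaged 540 ± 62.8 CPM in PexRAP-AKO and 442 ± 37.7 CPM in Control (SD, n = 5 each; log2 fold change 0.29).

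**Figure D4:**
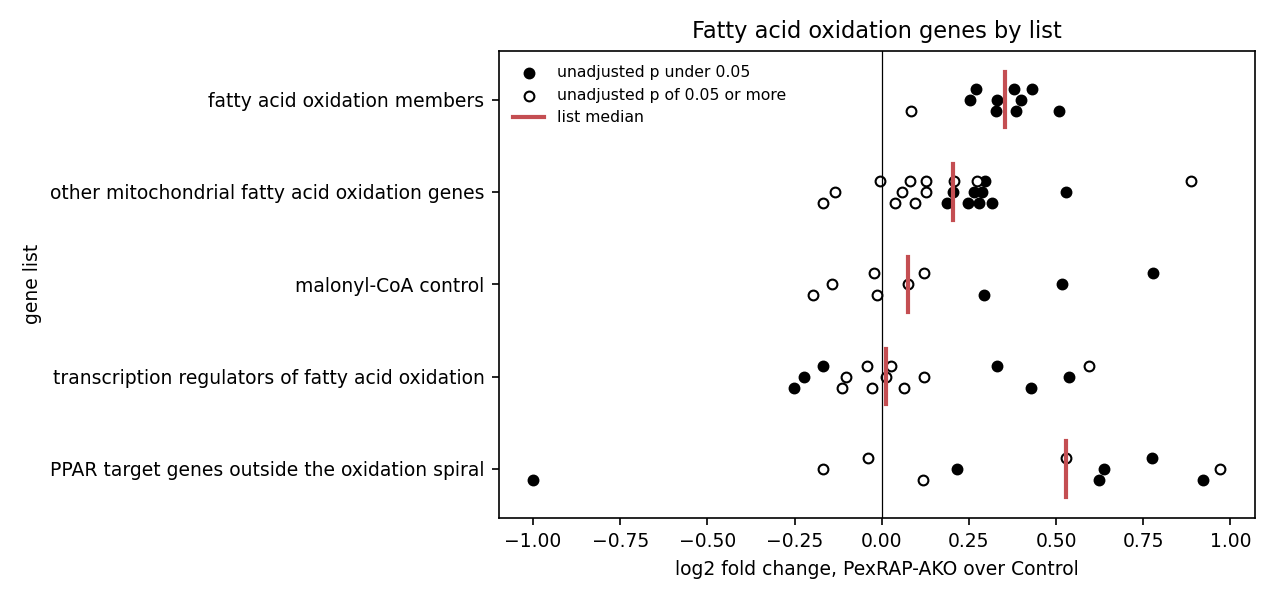
Log2 fold change, PexRAP-AKO over Control, of each tested gene in 5 lists, filled where the unadjusted edgeR p is under 0.05, with the list median as a red line. The 10 oxidation genes lie between 0.09 and 0.51, while the regulators spread on both sides of 0.

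Genes that set malonyl-CoA, the inhibitor of Cpt1a, were mixed. Of 9 tested, 5 were positive (median 0.07) and 0 passed the adjusted p by edgeR. At an unadjusted p under 0.05, 3 were higher and 0 lower, against 9.01% and 6.44% of all genes. Acaca and Acacb, the carboxylases that make malonyl-CoA, averaged 861 ± 298 and 851 ± 258 CPM in PexRAP-AKO, against 502 ± 228 and 595 ± 74.3 CPM in Control (SD, n = 5 each). Their log2 fold changes were 0.78 (SE 0.34) and 0.52 (SE 0.20). Mlycd, the decarboxylase that removes malonyl-CoA, averaged 79.5 ± 6.12 CPM in PexRAP-AKO and 64.9 ± 7.20 CPM in Control (SD, n = 5 each; log2 fold change 0.29). Prkag2, a regulatory subunit of the AMP-activated kinase, had a log2 fold change of -0.20 (SE 0.09). The genes that make malonyl-CoA and the one that removes it thus leaned the same way, short of the adjusted test.

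Of 15 transcription regulators of the pathway, 8 were positive (median 0.01) and 0 passed edgeR's adjusted p. At an unadjusted p under 0.05, 3 were higher and 3 lower, against 9.01% and 6.44% of all genes. Ppara, the fatty acid receptor that drives oxidation genes, averaged 47.5 ± 10.01 CPM in PexRAP-AKO and 32.6 ± 8.22 CPM in Control (SD, n = 5 each; log2 fold change 0.54, SE 0.20). Ppargc1a, a coactivator of mitochondrial genes, averaged 35.3 ± 6.58 CPM in PexRAP-AKO and 26.2 ± 4.77 CPM in Control (SD, n = 5 each; log2 fold change 0.43, SE 0.15). Rxra, the partner of the PPARs, and the deacetylase Sirt1 had log2 fold changes of -0.22 (SE 0.09) and -0.17 (SE 0.07).

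PPAR target genes outside the pathway had a median of 0.53 over 11 tested of 12, Fgf21 being below the filter. With the brown adipocyte score in the model it was 0.14. Of the 11, 5 were higher and 1 lower at an unadjusted p under 0.05, against 9.01% and 6.44% of all genes. By edgeR 0 passed the adjusted p. Plin2, a lipid droplet coat protein, averaged 603 ± 92.5 CPM in PexRAP-AKO and 391 ± 88.6 CPM in Control (SD, n = 5 each; log2 fold change 0.62). Ehhadh, the peroxisomal bifunctional enzyme, averaged 237 ± 66.5 CPM in PexRAP-AKO and 138 ± 37.0 CPM in Control (SD, n = 5 each; log2 fold change 0.78). The acyl-CoA thioesterase Acot1 was low, at 3.06 ± 1.19 CPM in PexRAP-AKO and 1.61 ± 0.367 CPM in Control (SD, n = 5 each; log2 fold change 0.92). Vnn1, a pantetheinase, went the other way, at 9.0 ± 3.86 CPM in PexRAP-AKO and 18.1 ± 5.50 CPM in Control (SD, n = 5 each; log2 fold change -0.999).

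Acat1 and Oxct1 act on ketone bodies, which are formed from the acetyl-CoA that oxidation releases. They are the 2 tested of 3 listed ketone body genes, Bdh1 being below the filter. Acat1, the mitochondrial acetoacetyl-CoA thiolase, averaged 454 ± 13.9 CPM in PexRAP-AKO and 391 ± 33.7 CPM in Control (SD, n = 5 each), with groups that did not overlap (log2 fold change 0.22, SE 0.07, edgeR adjusted p = 0.213). Groups without overlap and higher were thus found for 1 of the 2, against 2.08% of all genes. Oxct1, which starts ketone use, averaged 298 ± 12.9 CPM in PexRAP-AKO and 261 ± 20.1 CPM in Control (SD, n = 5 each; log2 fold change 0.20, SE 0.07, edgeR adjusted p = 0.219).

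The genes whose pattern over the 10 libraries was closest to the mean of the 10 oxidation genes were named by the root mean square difference of centred log2 CPM over 14288 genes (median over those genes 0.303). The pattern spans both groups, so a group difference like that of the oxidation genes was part of how these genes were named. The closest were Hspd1 (0.0490), a chaperone of the mitochondrial matrix, and Slc25a11 (0.0504), the oxoglutarate carrier. Chchd3 (0.0517), of the cristae junctions, Chchd4 (0.0574), of the import machinery of the intermembrane space, and Pycrl (0.0605), of proline synthesis, came next. Chchd3 averaged 180.1 ± 14.8 CPM in PexRAP-AKO and 141 ± 18.8 CPM in Control (SD, n = 5 each; log2 fold change 0.36, SE 0.10, edgeR adjusted p = 0.146).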

How the data were processed

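Per the labels' protocols, total RNA was extracted with a column kit for lipid tissue and made into Illumina libraries. The authors deposited raw counts of reads for each gene. STAR 2.0.4b, Subread, featureCounts and edgeR were used, per the submitters' processing notes. Genome build, annotation and strand: not given in the sources used here. Of 40724 rows, 40501 identifiers were kept, since 117 of them were repeated with the same counts. GENCODE M21 (GRCm38), which holds 99.4% of the identifiers, gave coordinates and transcript lengths.

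TMM scaling was done in edgeR 4.0.16 (R 4.3.3), and genes were filtered with filterByExpr (minimum count 10, minimum total 15). The main test was the quasi-likelihood F test with robust dispersion over 10 libraries, with Benjamini-Hochberg adjustment over 14913 genes and a threshold of 0.05. On simulated counts it recovered 45.3% of genes changed 1.5-fold and 78.8% of those changed 2-fold, with 4 false calls among 149. The folds of the 10 oxidation genes, 1.06 (Cpt1a) to 1.42 (Slc25a20), lie below the smallest fold simulated. SE is the log2 fold change over the root of F. A prior count of 2 was used in log2 CPM. Exact permutation tests are two-sided.

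The 10 genes and the 15 gene lists were chosen with earlier results of these data known. Genes named from a list are its 4 smallest p-values; Cpt1b, Dvl2, Gm13910 and Ucp1 were named after their values were seen. Some listed genes are not reported here. Alternatives were other scalings and filters, DESeq2 1.42.0, limma voom 3.58.1 with and without quality weights, a brown or muscle score as covariate, the replicate number as a block and each library left out. The lowest chi-square per degree of freedom between libraries of a group was 7.73, so each was kept as a replicate.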

Additional observations from a re-analysis of the deposited data

Results flagged for a closer look

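Of 74 groups of 5 log2 CPM values checked for a library far from the other 4, 3 were found, and chance alone gives 3.7. Hadh stood high in PexRAP-AKO replicate 2, at 9.42 with the nearest other PexRAP-AKO library at 9.26. Acat1 stood high in the same library, at 8.90 with the nearest at 8.81. Ppargc1a stood low in Control replicate 8, at 4.17 with the nearest Control library at 4.73. None of the 10 oxidation genes was among the 3.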

How the results depend on the processing

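In all 22 alternatives run, the 10 oxidation genes had positive log2 fold changes and Dhrs7b kept its call (log2 fold change -2.14 to -1.97). Leaving out PexRAP-AKO replicate 6 (high in lymphocyte markers) with Control replicate 8 (high in muscle markers) was chosen after seeing the data, as was the slope on the brown score. DESeq2 called 2 of the 10 genes, and 0 were called in the other alternatives. The 9 of 10 at an unadjusted p under 0.05 became 4 with the brown score, 5 without the named pair of libraries and 6 to 9 with 1 library left out (6.53% to 9.72% of all genes higher). The median of 0.35 became 0.18 with the brown score and 0.27 (without Control replicate 8) to 0.42 with 1 library left out. With library totals as the only scaling, 6 of the 10 genes had an unadjusted p under 0.05, against 4.29% of all genes higher, and the median was 0.28. Over all genes, the 15 calls became 26 with no filter, 439 with DESeq2 (higher share 70.4%, against 93.3%), 107 with quality weights, 7 with the brown score, 6 with the muscle score, 5 without the named pair and 3 (without Control replicate 8) to 58 (without PexRAP-AKO replicate 1) with 1 library left out. The cause of these moves was not tested. In a fit blocked on replicate number (2, 3 and 5 occur in both groups, 6 libraries), 3 genes were called, 6 of the 10 genes had an unadjusted p under 0.05, against 5.58% of all genes higher, and the median was 0.29. Same-numbered libraries deviated together with correlations of -0.02, -0.08 and 0.36, and they were not treated as paired. The 5 slopes called on the brown score were 3 to 5 with 1 library left out and 6 with library totals as the only scaling, which also moved the median of all genes to -0.07. Of 725 values of the 33 named genes other than Dhrs7b, 713 kept direction and side of the threshold, 12 passed it newly and 0 changed sign. A further value had no adjusted p (Acot1 with DESeq2).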

Other observations

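Of the 13 mRNAs encoded by mitochondrial DNA, 7 were tested and all 7 had a positive log2 fold change (median 0.33). At an unadjusted p under 0.05, 2 of the 7 were higher, against 9.01% of all genes, and 0 passed the adjusted p by edgeR. Of the mRNAs not tested, 5 were listed at 0 in all libraries. Summed, the list stood at 13633 to 26470 CPM in PexRAP-AKO and at 13122 to 17808 CPM in Control.

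Progenitor markers were positive in 4 of 7 (median 0.02) and macrophage markers in 5 of 6 (median 0.15). Lymphocyte markers were positive in 10 of 10 tested (median 1.34), against 49.8% of all genes. Their sums were 13.5 to 166 CPM in PexRAP-AKO, where replicate 6 was high in these markers, and 12.1 to 50.2 CPM in Control. By edgeR's unadjusted p under 0.05, 2 of the 10 were higher, against 9.01% of all genes. Mammary and skin epithelium markers were below the filter in 6 of 6. By edgeR 0 genes of these lists passed the adjusted p.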
